A study of Mus musculus with 6 samples.

Results

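The data described here are the accessible chromatin regions around 8 genes of the bone morphogenetic protein (BMP) pathway in the embryonic mouse face: the ligands Bmp2, Bmp4, Bmp5 and Bmp7, the secreted antagonists Nog, Chrd and Grem1, and the extracellular modulator Bmper. Open chromatin was mapped by ATAC-seq, in which a transposase cuts and tags DNA that is not packed away by nucleosomes. The tissue was face freshly dissected from E11.5 embryos of wild-type mice, with 2 libraries labelled maxillary process (the future upper jaw), 2 labelled mandibular process (the future lower jaw) and 2 labelled nose. The labels do not state if the 2 libraries sharing a label are from different embryos, so p-values measure only the spread between these libraries, which may be technical. All 6 libraries were untreated whole tissue of mixed cell type, so a peak does not say which cells carried it. Peaks from the 6 lists that overlapped by at least 1 bp were merged into 382006 regions. A region was assigned to the protein-coding gene whose start site lay nearest to its strongest summit, up to 200 kb away, which placed 302189 regions in all. Of these, 463 were assigned to the 8 genes.

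BMPs are secreted signals of the TGF-beta family. They bind paired type I and type II receptors, which phosphorylate SMAD1, SMAD5 and SMAD9, and these enter the nucleus with SMAD4. Antagonists such as noggin, chordin and gremlin bind the ligands outside the cell and keep them from their receptors. In the facial prominences BMP signalling patterns the outgrowing mesenchyme and takes part in jaw, lip, palate and tooth development.

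The 4 files of the jaw libraries carried, in their names, the abbreviation of the other jaw process. Groups here follow the sample labels, and the names maxillary and mandibular below mean the libraries labelled so. Of all 302189 assigned regions, 3.4% were called in both maxillary and neither mandibular libraries, and 5.17% the other way round. Around the lower jaw genes Hand1, Hand2, Dlx5 and Dlx6 these counts were 7 and 6 of 140 regions (5.0% and 4.29%). The genes of this list did not go one way. The counts were 5 and 0 of 54 near Hand2 (9.26% and 0.0%) and 0 and 2 of 15 near Dlx5 (0.0% and 13.3%). They were 2 and 4 of 40 near Dlx6 (5.0% and 10.0%) and 0 and 0 of 31 near Hand1. Around the maxillary genes Pou3f3 and Nr2f1 the counts were 4 and 7 of 137 regions (2.92% and 5.11%). Around the frontonasal genes Alx1 and Alx4 they were 0 and 14 of 151 (0.0% and 9.27%), and around the nasal epithelial genes Pax6, Sox2 and Six3 they were 3 and 15 of 218 (1.38% and 6.88%). These counts do not settle which jaw name is right. The nose files were named as labelled. The lists held 219779 to 299731 summits, the shortest being maxillary library 1, and depth in reads is unknown. The list of maxillary library 2 began at a −log10 q of 2.55 and that of mandibular library 1 at 1.62, against 1.3 in the other 4. Among markers of other cell types, the blood genes Gata1 and Klf1 had 7 regions, of which 0, 2 and 0 were specific to maxillary, mandibular and nose. Endothelial genes had 3, 3 and 2 such regions of 110, muscle genes 5, 2 and 1 of 65, neuronal genes 1, 1 and 0 of 27, and surface epithelial genes 1, 4 and 7 of 121. Of all assigned regions 1.84%, 2.64% and 2.9% were specific to these labels, together 7.38%. The shares together were 28.6% for blood, 7.27% for endothelial, 12.3% for muscle, 7.41% for neuronal and 9.92% for surface epithelial genes. Tcf21 had 4 of the 5 maxillary muscle regions, Trp63 all 7 nose epithelial ones and Gata1 both blood ones. The part of tissue composition in the results below was not tested.

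The sequences that carry the clearest differences are given first. They are windows of 201 bp on the plus strand of GRCm38, centred on the strongest summit, and a region is named by its gene and the distance from that gene's start site, positive in the direction of transcription. The first 5 are the regions whose strength differed between labels in the limma test described below. Capitals mark letters of any motif searched, here the homeodomain core TAAT, the E-box core CANNTG and the forkhead motif TGTTTAC on either strand.
Bmp5 +95.2 kb (chr9:75870475-75870675): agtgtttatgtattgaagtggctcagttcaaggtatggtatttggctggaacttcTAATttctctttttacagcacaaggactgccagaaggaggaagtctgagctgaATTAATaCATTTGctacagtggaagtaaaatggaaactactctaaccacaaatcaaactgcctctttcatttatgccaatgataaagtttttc
Bmp5 +24.0 kb (chr9:75799240-75799440): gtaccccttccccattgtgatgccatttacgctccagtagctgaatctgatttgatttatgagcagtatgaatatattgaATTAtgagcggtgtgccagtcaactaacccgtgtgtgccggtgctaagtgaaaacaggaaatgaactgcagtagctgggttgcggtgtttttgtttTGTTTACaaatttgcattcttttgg
Bmp7 +161.1 kb (chr2:172779102-172779302): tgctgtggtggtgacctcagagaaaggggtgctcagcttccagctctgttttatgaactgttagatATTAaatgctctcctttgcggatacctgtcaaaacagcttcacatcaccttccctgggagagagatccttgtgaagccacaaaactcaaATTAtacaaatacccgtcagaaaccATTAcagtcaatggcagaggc
Bmp2 +83.4 kb (chr2:133635496-133635696): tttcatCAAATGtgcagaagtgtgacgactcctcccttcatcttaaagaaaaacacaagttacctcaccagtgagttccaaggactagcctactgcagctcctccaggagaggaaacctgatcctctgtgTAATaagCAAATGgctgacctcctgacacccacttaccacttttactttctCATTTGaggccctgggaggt
Grem1 +150.6 kb (chr2:113607954-113608154): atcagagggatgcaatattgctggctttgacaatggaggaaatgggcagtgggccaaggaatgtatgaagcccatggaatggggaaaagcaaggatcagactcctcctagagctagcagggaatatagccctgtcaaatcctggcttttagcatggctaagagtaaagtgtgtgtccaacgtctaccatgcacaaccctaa
Bmp5 +24.0 kb held the only forkhead match among them. Bmp2 +83.4 kb held 3 E-box cores and Grem1 +150.6 kb held neither core. The other 3 windows show the best-ranked region of those that only 1 label had, by the weaker of its 2 libraries. The Bmper window was specific to maxillary, the Nog window to mandibular and the Grem1 window to nose.
Bmper +196.8 kb (chr9:23419791-23419991): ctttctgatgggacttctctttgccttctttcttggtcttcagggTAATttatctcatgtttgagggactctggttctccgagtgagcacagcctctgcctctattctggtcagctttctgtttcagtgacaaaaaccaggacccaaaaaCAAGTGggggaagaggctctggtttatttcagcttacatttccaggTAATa
Nog +31.3 kb (chr11:89270949-89271149): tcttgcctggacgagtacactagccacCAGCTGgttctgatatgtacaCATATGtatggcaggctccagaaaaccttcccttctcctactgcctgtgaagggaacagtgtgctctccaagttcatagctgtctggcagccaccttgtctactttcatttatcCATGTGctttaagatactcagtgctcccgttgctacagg
Grem1 +119.1 kb (chr2:113639398-113639598): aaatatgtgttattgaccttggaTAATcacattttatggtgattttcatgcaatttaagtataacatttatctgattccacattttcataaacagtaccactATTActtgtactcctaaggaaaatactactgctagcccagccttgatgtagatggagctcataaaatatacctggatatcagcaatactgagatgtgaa
The cores TAAT and CANNTG were chosen after the values were seen and are common: among windows of all 382006 regions 64.0% held the first and 70.6% the second. Of the 463 windows of the BMP genes, 310 (67.0%) held TAAT and 343 (74.1%) held CANNTG. Such matches describe letters and are not binding sites.

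Each of the 8 genes had a region over its start site that was called in all 6 libraries. Bmp5, the ligand mutated in the short ear mouse, had the strongest one. Its fold over local background was 10.3 and 11.4 in the maxillary libraries, 11.8 and 13.6 in the mandibular libraries and 7.76 and 10.8 in the nose libraries. Bmper, which encodes a secreted protein that binds BMPs and can dampen or promote their signal, had 9.33 and 10.1, 8.11 and 7.96, and 9.27 and 9.97 in maxillary, mandibular and nose. Chrd, whose product chordin sequesters BMPs and is cleaved by tolloid proteases, had 8.23 and 8.74, 7.39 and 8.85, and 10.6 and 8.60. The maxillary and nose values of Bmper lay above both mandibular values, while those of Chrd overlapped between all labels.

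Bmp7 averaged a fold of 7.39 ± 1.34 at its start site, Bmp2 6.76 ± 0.422 and Grem1 6.65 ± 0.583 (SD, n = 6 libraries). Bmp4 and Nog were lowest, with 4.60 ± 0.641 and 4.52 ± 0.365 (SD, n = 6). Neighbours in this order overlapped, except that the lowest Grem1 value, 5.91, lay above the highest Bmp4 value, 5.78. Fold is relative to the background of each locus, so the order is of peak height and not of transcription. The start-site regions of Bmp4 and Nog lay between the 63.3rd and 85.7th percentile of their lists by −log10 p, and those of the other 6 genes between the 82.5th and 97.5th. In none of the 3 contrasts between labels did a start-site region pass the limma test, the smallest Benjamini-Hochberg adjusted p being 0.147, for Bmp5 in mandibular against nose. Its log2 difference there was 0.46 ± 0.17 (SE).

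**Figure D1:**
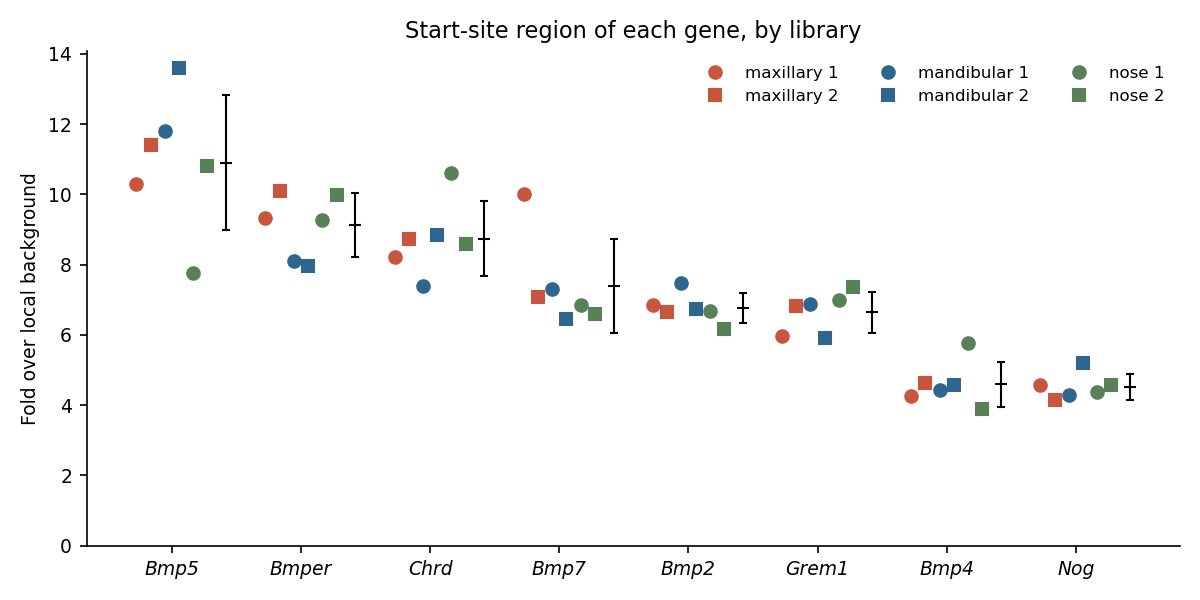
Fold over local background at the start-site region of each gene (vertical axis), ordered by mean. Circles and squares are the first and second library of each label, and bars are the mean ± SD of the 6 libraries, from 10.9 ± 1.92 for Bmp5 to 4.52 ± 0.365 for Nog.

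The genes differed widely in how many regions lay around them. Bmp2 had 113, Bmper 97, Bmp7 82, Bmp5 52, Grem1 49, Bmp4 42, Nog 27 and Chrd 1. The single Chrd region followed from its neighbours, since only 1.943 kb lay nearer to its start sites than to another protein-coding start. Per 100 kb of such territory the members together had 26.6 regions, against 15.6 for all protein-coding genes. Bmp7 had 38.2 regions per 100 kb, Bmp5 31.4, Bmp2 28.2, Grem1 25.3, Bmper 24.2, Bmp4 22.0 and Nog 15.6. All 8 genes were therefore at or above the value for all genes, Nog being level with it.

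The regions were mostly far from the start sites. In all, 14 lay within 1 kb of a start site, 15 in exons, 173 in introns and 261 between genes. Bmp2 stood in a gene desert, with 108 of its 113 regions between genes. Bmp5, Bmper and Bmp7 had 38, 44 and 22 regions in their own introns. Around Grem1, 35 of 49 regions lay in the neighbouring gene Fmn1, whose introns are known to hold limb bud enhancers of Grem1, and 6 lay in Scg5 on the other side. Around Bmp4, 26 of 42 regions lay in noncoding transcripts, 4 of them in Rubie. The rule stopped at 200 kb. The farthest regions inside it were 197.9 kb from Bmp2 and 199.3 kb from Bmper, the nearest outside were at 201.3 and 201.7 kb, and 82 and 73 regions beyond the limit were nearest to these genes. The other 6 genes lost none.

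Of the 463 regions, 91 (19.7%) were shared by all 6 libraries, against 20.2% of all assigned regions, and 169 (36.5%) were called in 1 library, against 42.7%. Nog had the largest shared part apart from Chrd, 9 of 27 regions (33.3%), followed by Bmp7 with 22 of 82 (26.8%). Bmp2 with 14 of 113 (12.4%) and Bmp5 with 6 of 52 had the smallest. The shared regions were wider, with a median of 566 bp, than the 210 bp of all regions of these genes. Around all protein-coding genes these medians were 534 and 173 bp.

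The number of regions called per library was 196 and 245 in maxillary, 230 and 215 in mandibular and 226 and 247 in nose, and these ranges overlapped. Bmp7 had 35 and 46 regions in maxillary, 47 and 47 in mandibular and 50 and 55 in nose. Both nose libraries were above the other 4, and they remained so in lists shortened to the length of the shortest, with 38 and 38 regions, against 28 to 35. At that length all protein-coding genes together had 116382 and 101405 regions in maxillary, 102294 and 105668 in mandibular and 107483 and 106099 in nose, so the lists were not equal in regions either. Nog had 11 and 12 regions in maxillary, 16 and 16 in mandibular and 15 and 17 in nose. Both maxillary libraries were lowest, but in lists of equal length they had 11 and 11, mandibular 11 and 14 and nose 14 and 12, so that the labels met.

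Bmp2 had 38 and 57 regions in maxillary, 47 and 49 in mandibular and 55 and 69 in nose. The maxillary range overlapped both others, while both nose values lay above both mandibular ones. In lists of equal length both nose libraries, with 40 and 45, lay above the other 4, with 31 to 38. Bmp4 had 19 and 23 regions in maxillary, 23 and 14 in mandibular and 20 and 13 in nose, overlapping between all labels. In lists of equal length it had 19 and 18 in maxillary, 13 and 12 in mandibular and 12 and 9 in nose, so that maxillary stood above the rest. At equal length Bmper likewise had maxillary above the rest. It had 48 and 43 regions in maxillary, 31 and 37 in mandibular and 36 and 32 in nose. In the full lists it had 48 and 55, 48 and 45, and 44 and 47, so that maxillary met mandibular but lay above nose. Bmp5, with 20 to 23 regions, overlapped between labels. Grem1 had 23 and 30 in maxillary, 25 and 22 in mandibular and 21 and 22 in nose. Both maxillary values thus lay above both nose values, and mandibular met both labels. In lists of equal length Grem1 in maxillary, with 23 and 19, met nose, with 19 and 15.

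**Figure D2:**
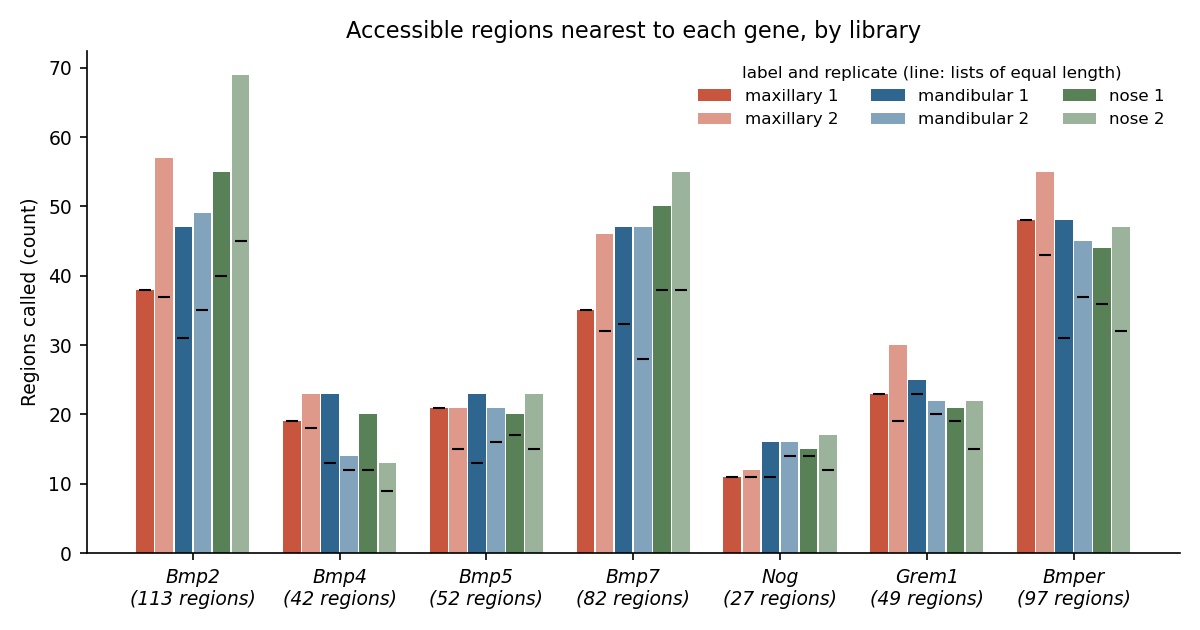
Number of regions called (vertical axis) in each library for 7 genes; Chrd had 1 region in every library. Bars are the full lists and short black lines the lists shortened to 219779 summits, at which both nose libraries had the most regions around Bmp2 and Bmp7.

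To compare presence, a region was counted as present with a label if both of its libraries had a call and as absent if neither did. Between maxillary and mandibular, 34 of 463 regions (7.34%) were maxillary only, against 3.4% of all assigned regions, and 24 (5.18%) were mandibular only, against 5.17%. Between maxillary and nose, 35 (7.56%) were maxillary only, against 3.6%, and 30 (6.48%) nose only, against 5.37%. Between mandibular and nose, 25 (5.40%) were mandibular only, against 4.89%, and 33 (7.13%) nose only, against 4.85%. In the full lists the maxillary-only shares lay farthest above the background, and the mandibular-only shares were close to it. In lists of equal length the maxillary-only regions numbered 36 (7.78%) against mandibular and 32 (6.91%) against nose, with 3.73% and 3.69% of all regions. At a −log10 q of at least 3 they numbered 15 (3.24%) and 14 (3.02%), with 2.11% and 2.34% of all regions. At that threshold the nose-only regions against mandibular, 19 (4.1%, with 2.88% of all regions), lay farther above the background than either. The 3 contrasts share libraries. With 2 libraries a label, an exact permutation test of a single value cannot go below p = 0.333, so no region was tested on presence.

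Regions that both libraries of 1 label had and the other 4 libraries lacked, here called label-specific, numbered 20 for maxillary (4.32%, against 1.84% of all regions), 12 for mandibular (2.59%, against 2.64%) and 15 for nose (3.24%, against 2.9%). Together they were 47 regions, or 10.2%, against 7.38% of all assigned regions. Bmper had 7 of the 20 maxillary ones, Bmp2 4, Bmp4 3, and Bmp5, Bmp7 and Grem1 2 each. Bmp7 had 3 of the 12 mandibular ones, Bmp4, Nog, Grem1 and Bmper 2 each and Bmp5 1. Bmp2 and Bmp7 had 4 each of the 15 nose ones, Bmp5 and Nog 2 each, and Bmp4, Grem1 and Bmper 1 each. The 4 ligands together had 28 label-specific regions of 289 (9.69%) and the 4 antagonists and modulator 19 of 174 (10.9%).

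Label-specific regions were weak peaks. Their mean rank within the lists had a median of 31.3, 29.9 and 34.8 percent for maxillary, mandibular and nose, against 68.6 percent for the regions called in all 6 libraries, and 11 of the 47 reached a −log10 q of 3 in both of their libraries. Fold values repeated between them, 6 of the 20 maxillary ones having a fold of 3.62 in maxillary library 1. They lay a median of 94.6 kb from the start site, and 1 of the 47 was within 1 kb, a piece of the Bmp7 start region with folds of 2.49 and 2.14 in nose.

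**Figure D3:**
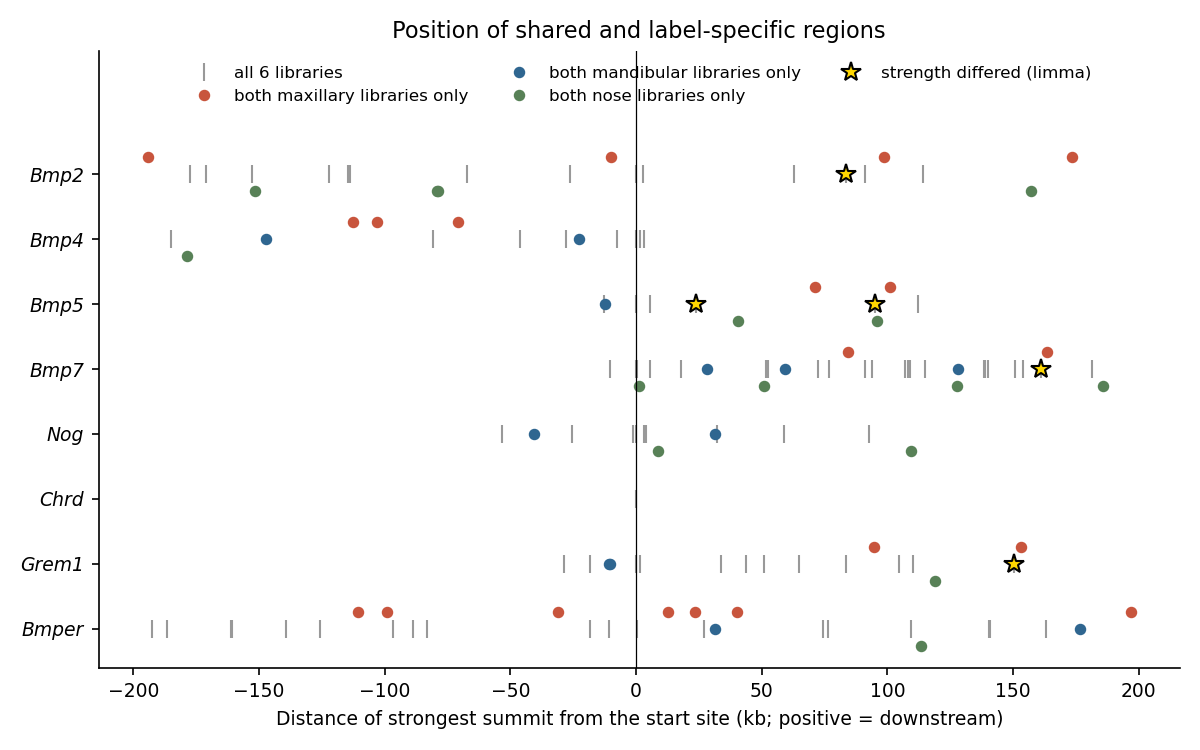
Distance of each region's strongest summit from the start site in kb (horizontal axis, positive is downstream), by gene. Grey bars are the 91 shared regions, dots the 20 maxillary, 12 mandibular and 15 nose label-specific regions, and stars the 5 regions whose strength differed.

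Bmp2, a ligand needed for heart, bone and neural crest development, had no mandibular-specific region among its 113, against 2.64% of all assigned regions. Bmp2 −9.8 kb had folds of 4.23 and 9.79 in maxillary and no call in the other 4 libraries, the strongest label-specific peak in 1 library but with a −log10 q of only 2.92 in the other. Bmp2 −151.4 kb, with folds of 4.19 and 4.01, and −79.1 kb, with 4.2 and 4.32, were nose-specific and passed a −log10 q of 3 in both libraries. In 4 further regions of 113 the 2 mandibular libraries lacked a call that all other 4 had, against 2342 of all 302189 assigned regions. The maxillary libraries alone lacked a call in 3 Bmp2 regions, against 3496 of all, and the nose libraries in 1, against 2749. Among the 4 that mandibular lacked, Bmp2 +14.4 kb had folds of 5.50 and 5.83 in maxillary and 5.76 and 4.15 in nose. The region +40.3 kb had 4.23 and 6.85 in maxillary and 4.63 and 4.79 in nose. Between the mandibular and nose libraries, 2 Bmp2 regions (1.77%, against 4.89% of all regions) were mandibular only and 11 (9.73%, against 4.85%) nose only.

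Bmp4, a ligand expressed in facial epithelium and mesenchyme and linked to cleft lip in mutant mice, had label-specific regions at low strength: 3 maxillary (−112.5, −103.1 and −70.8 kb), 2 mandibular and 1 nose. Its highest-ranked distal region, +3.1 kb, was called everywhere, with folds of 5.85 to 7.47. The next by mean rank, −46.2 kb, was also called everywhere and had higher folds. They were 9.23 and 13.4 in maxillary, 8.84 and 9.82 in mandibular and 7.75 and 7.75 in nose. Both maxillary values lay above both nose values, and the mandibular values overlapped the maxillary ones. Its limma calls numbered 0 in each contrast among 8 shared regions, with 1, 2 and 1 at an unadjusted p under 0.05 in maxillary against mandibular, maxillary against nose and mandibular against nose. Over all regions tested, 13.7%, 14.0% and 15.9% were under that p.

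Bmp7, a ligand required for eye and kidney development, had label-specific regions in all 3 labels. Bmp7 +51.0 kb, in an intron, had folds of 5.46 and 4.08 in nose only. Bmp7 +59.3 kb had 4.75 and 3.57 in mandibular only, and +163.6 kb 3.45 and 4.86 in maxillary only. The distal regions +93.8 and +150.8 kb were shared and strong, the first with folds of 6.42 to 7.54 and the second with 6.81 to 10.5 over the 6 libraries.

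Nog encodes noggin, which blocks the receptor-binding surface of several BMPs. It had mandibular-specific regions at −40.6 kb, with folds of 6.18 and 3.81, and +31.3 kb, with 4.81 and 4.36. Nose-specific ones lay at +8.8 kb, with 3.55 and 5.35, and +109.4 kb, with 4.73 and 4.32. None was maxillary-specific. The strongest distal region, +3.9 kb, was stronger than the start site itself in all 6 libraries, with folds of 7.80 and 7.19 in maxillary, 6.92 and 7.03 in mandibular and 7.50 and 5.69 in nose.

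Grem1 encodes gremlin, an antagonist of BMP2, BMP4 and BMP7. Grem1 +119.1 kb, in Fmn1, had folds of 6.34 and 5.28 in nose and no call in the jaws, and was the highest-ranked label-specific region of the nose. The adjoining regions −10.7 and −10.5 kb were mandibular-specific, with folds of 5.70 and 3.81 and of 4.75 and 4.29. The shared region +83.6 kb in Fmn1 had 10.5 and 13.1 in maxillary, 12.1 and 13.2 in mandibular and 8.41 and 9.59 in nose, so that both jaw labels lay above the nose. This difference did not pass the limma threshold in either contrast.

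Bmper had the most maxillary-specific regions, 7 of its 97, against 1.84% of all assigned regions. Bmper +196.8 kb had folds of 5.43 and 5.92, +40.3 kb 4.83 and 6.32, and −31.2 kb 5.43 and 3.95, each in maxillary only. In the contrast with nose, 13 Bmper regions (13.4%, against 3.6% of all regions) were maxillary only and 5 (5.15%, against 5.37%) nose only. The opposite pattern stood at +199.3 kb, just inside the distance limit, with folds of 8.01 and 6.46 in mandibular, 3.66 and 4.79 in nose and no maxillary call. The strongest distal region, −139.4 kb, was shared, with folds of 13.8 and 13.5 in maxillary, 11.4 and 10.9 in mandibular and 12.4 and 11.7 in nose. Both maxillary values lay above the other 4.

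Peak strength was then compared in the regions called in all 6 libraries, since only these had a fold in each. The log2 folds of 69940 regions were quantile normalized and tested with limma, with Benjamini-Hochberg adjustment over all of them and a threshold of 0.05. On simulated data this test recovered 10% of added log2 differences of 1 and 70% of those of 2. The simulation drew each region's noise from its own residual spread and changed few regions, so its setting differs from the data. These shares are therefore not the power of the test here. A region without a call, at a start site or elsewhere, is in any case not shown to be equal between labels. Of the 91 regions of the BMP genes, 2 were higher and 1 lower in maxillary than in mandibular (2.20% and 1.10%, against 0.915% and 0.885% of all regions tested). In maxillary against nose, 0 were higher and 0 lower, against 1.23% and 0.865% of all regions, with 12 of 91 (13.2%) at an unadjusted p under 0.05, against 14.0% of all regions. In mandibular against nose, 1 was higher and 2 lower (1.10% and 2.20%, against 1.89% and 1.46%). With so few calls their shares cannot be told from the background. In maxillary against mandibular, 14 of 91 (15.4%) had an unadjusted limma p under 0.05, against 13.7% of all regions. In mandibular against nose 22 of 91 (24.2%) did, against 15.9%. These shares were not tested. The medians over the 91 regions were −0.05, −0.01 and −0.02 on the log2 scale in the 3 contrasts.

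The calls in Bmp5 were the most concentrated. Bmp5 +95.2 kb, at chr9:75870317-75870973 in an intron of Bmp5, had folds of 6.47 and 9.03 in maxillary, 3.8 and 4.29 in mandibular and 8.97 and 7.35 in nose. Both mandibular values lay below the other 4. The log2 difference was 0.92 ± 0.25 (SE) for maxillary minus mandibular (limma adjusted p = 0.0439) and −1.0 ± 0.25 for mandibular minus nose (limma adjusted p = 0.0181). Beside it, at +95.8 kb, lay a nose-specific region with folds of 3.47 and 5.11.

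Bmp5 +24.0 kb, at chr9:75799031-75799630 in an intron, had folds of 4.37 and 4.72 in maxillary, 3.21 and 3.38 in mandibular and 5.75 and 6.14 in nose, with no overlap between labels. Mandibular minus nose was −0.82 ± 0.24 (limma adjusted p = 0.0463). The mandibular calls were weak, with a −log10 q of 1.835 and 2.003 in lists that began at 1.62 and 1.3. At a −log10 q of at least 3, and in lists of equal length, this region was called in 4 libraries. The intronic regions +5.5 and +112.1 kb had log2 differences of −0.84 and −0.76 in this contrast with limma adjusted p of 0.0673 and 0.116. At +5.5 kb the folds were 4.03 and 3.83 in mandibular and 7.05 and 7.0 in nose. All 4 shared intronic regions of Bmp5 were therefore lower in mandibular than in nose by 0.76 to 1.0, of which 2 passed the test, while the start site stood 0.46 the other way without passing it. The median of the 6 shared Bmp5 regions was −0.79, against −0.01 for all regions tested.

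Bmp7 +161.1 kb, at chr2:172778880-172779668 between genes, had folds of 8.24 and 7.16 in maxillary, 9.17 and 9.29 in mandibular and 4.60 and 4.84 in nose. Both nose libraries lay below all 4 jaw libraries. Mandibular minus nose was 0.93 ± 0.24 (limma adjusted p = 0.0213).

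Bmp2 +83.4 kb, at chr2:133635335-133635852 between genes, had folds of 9.43 and 13.0 in maxillary, 6.66 and 7.15 in mandibular and 9.98 and 10.8 in nose. Mandibular was again the lowest label, without overlap, and maxillary minus mandibular was 0.72 ± 0.19 (limma adjusted p = 0.0419). Grem1 +150.6 kb, at chr2:113607748-113608313 in an intron of Fmn1, had folds of 7.06 and 8.12 in maxillary, 12.9 and 12.3 in mandibular and 10.8 and 8.01 in nose. Here both mandibular libraries were the highest of the 6, and maxillary minus mandibular was −0.74 ± 0.19 (limma adjusted p = 0.0315). Of 12 shared Grem1 regions 9 were below 0 in this contrast (75.0%, against 49.9% of all regions tested). An unadjusted p under 0.05 was found for 4 of these 9 and for 1 of those above 0, against 13.7% of all regions tested.

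Every one of these calls missed the threshold when any 1 library of its own contrast was left out. The direction was kept each time, and the adjusted p without 1 such library was between 0.0673 and 0.355. Without a library of the third label, the calls at Bmp7 +161.1 kb and Grem1 +150.6 kb were kept. That at Bmp5 +95.2 kb in mandibular minus nose was lost only without maxillary replicate 2. The other calls were lost whichever library of the third label was left out.

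**Figure D4:**
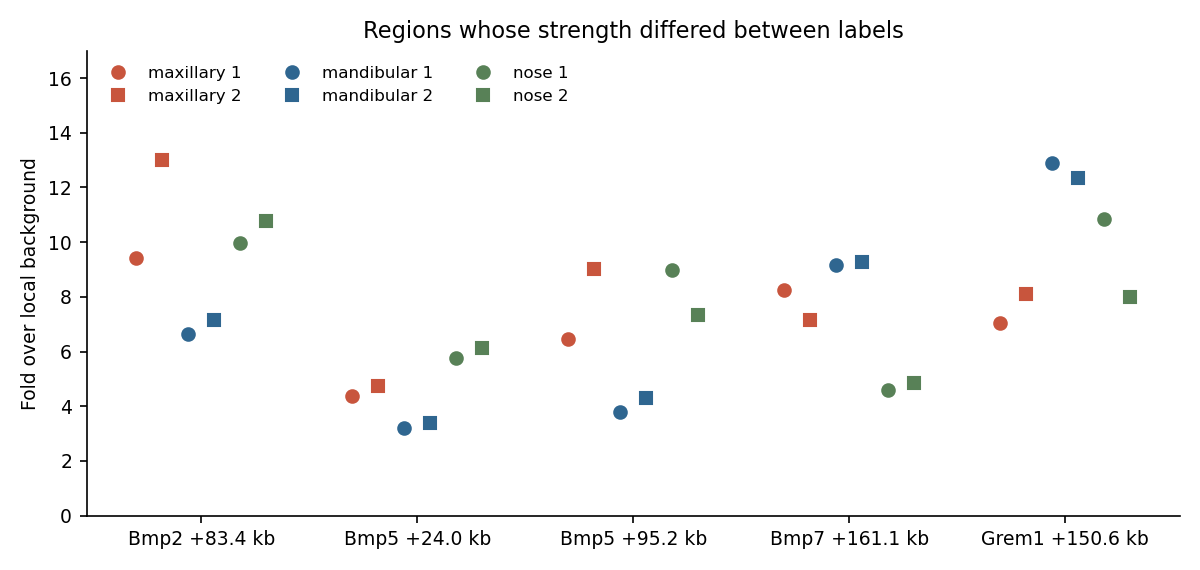
Fold over local background (vertical axis) in each library at the 5 regions past the limma threshold. Circles and squares are the first and second library of each label; mandibular was lowest at both Bmp5 regions and at Bmp2 +83.4 kb, nose was lowest at Bmp7 +161.1 kb, and mandibular was highest at Grem1 +150.6 kb.

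**Figure D5:**
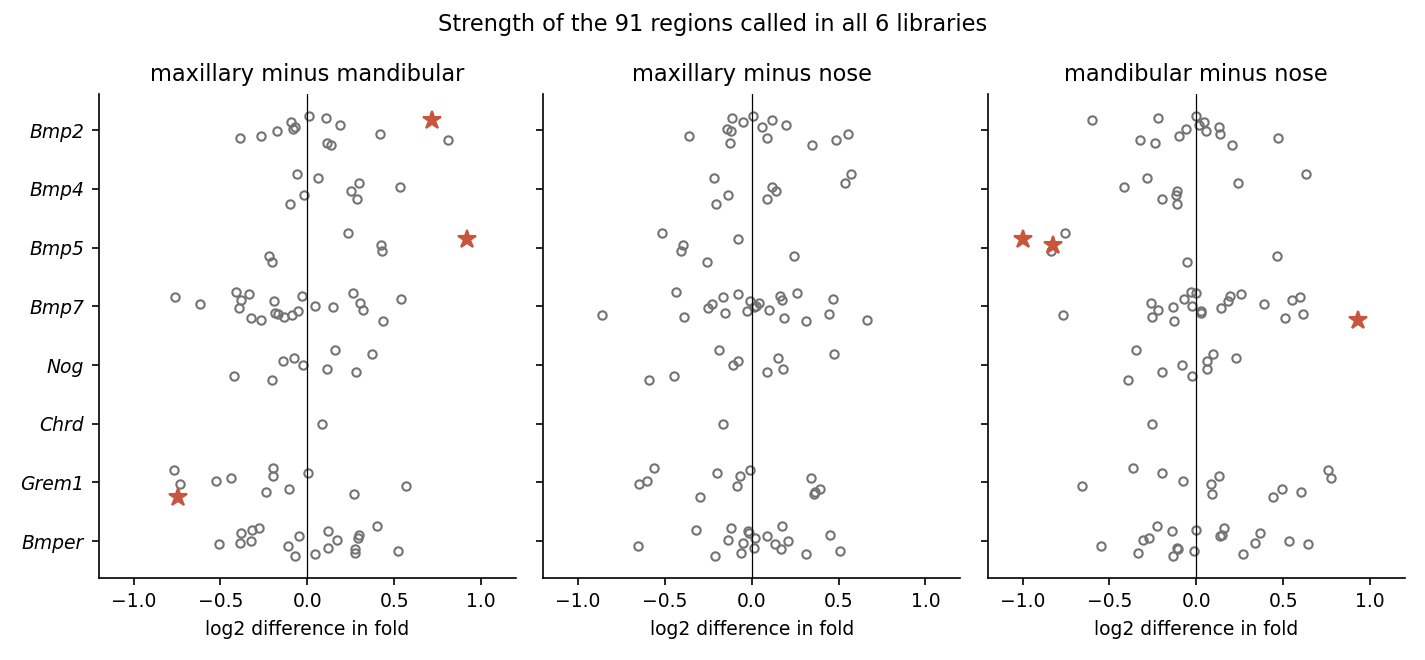
Log2 difference in fold (horizontal axis) of the 91 shared regions, arranged by gene, for the 3 contrasts. Stars are regions with a limma adjusted p under 0.05 and circles the rest; the height within a gene only spreads the points. The shared Bmp5 regions had a median of −0.79 in mandibular minus nose.

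The rest of the pathway was read in the same way from lists of genes. Label-specific regions made up 14 of 135 (10.4%) around the ligands Bmp3, Bmp6, Gdf5 and Gdf6 and 9 of 84 (10.7%) around the antagonists Chrdl1, Fst, Sostdc1, Twsg1 and Nbl1, close to the 10.2% of the 8 genes. They were 17 of 315 (5.40%) around the receptor genes Bmpr1a, Bmpr1b, Bmpr2, Acvr1, Acvr2a and Acvr2b, 2 of 83 (2.41%) around the transducers Smad1, Smad4, Smad5 and Smad9, and 12 of 282 (4.26%) around Id1, Id2, Id3, Smad6, Smad7 and Bambi, which respond to or damp the signal. Around all genes the share was 7.38%. Single genes did not all follow their list. Of the 17 secreted ligands and antagonists, 11 stood above that value and 6 below, among them Bmp2, Chrd, Bmp6 and Gdf5. Of the 16 other genes, 15 stood below it and the receptor gene Acvr2b, with 1 of 9 regions, above. These are descriptions without a test.

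Calls of strength in the other pathway genes were too few to set apart from the shares of all regions tested given above. In maxillary against mandibular, limma called 0 higher and 1 lower of 29 regions of the other ligands, 0 of 13 of the antagonists, 1 and 1 of 48 of the receptors, 0 of 9 of the transducers and 1 and 0 of 81 of the responding genes. In maxillary against nose it called 1 lower among the receptors and 1 higher and 1 lower among the responding genes. In mandibular against nose it called 1 higher among the other ligands and 1 lower among the receptors.

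Motifs with a set sequence were no more common than elsewhere in most cases. The SMAD1/5 motif GGCGCC, searched on both strands like the others, was found in 9 of the 463 windows (1.94%, against 2.45% of all 382006 regions), among them the start-site windows of Bmp2 and Grem1 and 2 windows within 1 kb of the Bmp7 start. The E-box CAGATG was in 96 (20.7%, against 20.7%), the TFAP2 motif GCCNNNGGC in 34 (7.34%, against 6.40%), the LEF/TCF motif CTTTGAA in 32 (6.91%, against 5.39%), the SOX motif AACAAT in 41 (8.86%, against 9.68%) and the forkhead motif TGTTTAC in 14 (3.02%, against 3.12%). The homeodomain motif TAATTA, which holds the core TAAT on both strands, was in 26 windows (5.62%, against 5.12%), and in 8 of the 91 shared ones (8.79%, against 3.86% of all regions called in all 6 libraries). For the other motifs these shared shares were 5.49% against 7.39% (SMAD1/5), 20.9% against 20.2% (E-box) and 9.89% against 10.8% (TFAP2). They were 5.49% against 4.67% for LEF/TCF, 9.89% against 7.13% for SOX and 3.3% against 2.57% for forkhead.

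For each gene with 20 or more regions, the share of its regions called in each library was compared with that of 4746 genes. Axin2 was most alike to Bmp2, with a mean absolute difference of 2.04 percentage points over the 6 libraries. Mllt3 was most alike to Bmp5 (1.2 points), Tax1bp1 to Bmp4 (3.38 points), Fignl1 to Bmp7 (2.44 points), Tm4sf4 to Nog (1.68 points), Rreb1 to Grem1 (1.5 points) and C530008M17Rik to Bmper (1.39 points). Among so many genes a close one is found in any case, and no typical difference was computed. The pairs are descriptions and do not show shared regulation.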

How the data were processed

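Bulk ATAC-seq libraries of face tissue were prepared with Tn5 and read as single ends of 50 bp, per the labels. Bowtie2, SAMtools and the build mm10 are listed, with no version, in the submitters' processing notes. The study's methods describe, for its embryonic samples, the ENCODE ATAC-seq pipeline with peaks called on a fixed subsample of reads. They do not say whether this covers the mouse libraries, whose caller is therefore not stated here and whose depth is unknown. The authors deposited 1 peak list per library, holding for each summit a fold over background (a ratio), a −log10 p, a −log10 q and a score. The deposited score was 10 times the −log10 p with its decimals dropped, and added nothing.

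Overlapping peaks were merged, and each region went to the gene with the closest start site to its strongest summit (highest rank in its list), among 21851 protein-coding genes (GENCODE M21, basic). Strength was tested with limma 3.58.1 (R 4.3.3), trend fitted, over all 6 libraries, after tests on simulated data. The fold of a region was that of its strongest summit in each library. No value was imputed in this test. Windows came from GRCm38, whose 4000 compared promoters matched the RefSeq table. Other steps ran in Python 3.11.15 (pandas 2.3.3, numpy 2.4.6).

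The genes and lists were chosen with earlier results of these data known, and some list genes are not reported here. Named regions were those at start sites, the strongest distal ones, those past the limma threshold, and those specific to or missing from a label. Marker lists covered lower and upper jaw, frontonasal and nasal tissue, epithelium, blood, endothelium, muscle and neurons. Alternatives were lists of equal length, a stricter q, a minimum cover, a shorter distance, other normalizations and filters, a replicate block and leaving out each library.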

Additional observations from a re-analysis of the deposited data

How the results depend on the processing

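None of the 6 limma differences past the threshold changed sign under any alternative run, but the order of paired counts did. Requiring a −log10 q of at least 3 lowered the counts to 15 maxillary-only and 10 mandibular-only regions in the first contrast, 14 maxillary-only and 11 nose-only in the second, and 13 mandibular-only and 19 nose-only in the third, with 8, 6 and 7 regions specific to maxillary, mandibular and nose. A distance limit of 100 kb gave, for these pairs, 18 and 15, then 19 and 14, then 19 and 16, with 11, 9 and 7 label-specific regions, so that mandibular-only exceeded nose-only where the full set had 25 and 33. Lists of equal length gave 16 nose-only regions against maxillary and 14 mandibular-only against nose. Mandibular-only regions against nose then lay below the share of all regions (3.02% against 3.41%), as at the stricter q (2.81% against 3.12%), where the full lists had 5.4% against 4.89%. A minimum cover of 25% left every count within 1.5 times. Leaving out 1 library gave 34 to 80 maxillary-only and 24 to 69 mandibular-only regions, 35 to 79 maxillary-only and 30 to 79 nose-only, and 25 to 75 mandibular-only and 33 to 87 nose-only. Label-specific regions then numbered 21 to 52, 13 to 48 and 18 to 59, since a label with 1 library needs only 1 call. The share of all regions moved too: the 80 maxillary-only regions (17.3%, without maxillary replicate 1) stood against 12.1% of all, and the 69 mandibular-only ones (14.9%, without mandibular replicate 2) against 16.4%. In that setting maxillary-only regions (46) were fewer than mandibular-only ones, as without mandibular replicate 1 (42 and 57). Maxillary-only shares stayed above those of all regions in all 6 settings of both contrasts, while mandibular-only shares fell below in 2 of 6 against maxillary and 3 of 6 against nose, and nose-only shares in 1 of 6 each. Leaving out a library of the third label cannot change a contrast's counts, so those settings only repeat the full result.

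The limma calls in maxillary against mandibular, maxillary against nose and mandibular against nose were 3, 0 and 3. They became 6, 2 and 5 over regions called in at least 4 libraries, 5, 3 and 7 on the log2 −log10 q, and 3, 0 and 6 with median centring. Leaving out 1 library gave 0 to 1, 0 and 0 to 2. Same-numbered libraries deviated together only weakly (r of 0.007, 0.065 and 0.031 over 69940 regions), so the numbers were not taken as pairs. A replicate block gave 3, 1 and 5 calls. Over regions called in at least 4 libraries, with missing values filled at the 1st percentile of a library, Bmp5 +24.0 kb (limma adjusted p = 0.0864) and Bmp5 +95.2 kb in maxillary minus mandibular (0.0503) missed the threshold. The cause of these changes was not tested. With no read depth, a missing call says only that a region did not pass the caller in that list.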
